A study of Caenorhabditis elegans with 3 samples.

Results

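The genes described here encode histone-modifying enzymes, proteins that read histone marks, and subunits of a chromatin-remodelling complex of Caenorhabditis elegans. They are the protein-coding genes on nuclear chromosomes whose Ensembl names begin with set-, hda-, jmjd-, swsn- or sir-2, together with met-1, met-2, hpl-1, hpl-2, mes-2, mes-3, mes-4 and mes-6. This rule gave 66 of 19973 genes. The rule used names and no binding values, but it was chosen with earlier results of these data known. Not every product acts on chromatin: sir-2.2 and sir-2.3, for example, encode mitochondrial sirtuins.

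The measurements were chromatin immunoprecipitation and sequencing (ChIP-seq) of NHR-25, a nuclear hormone receptor of the FTZ-F1/SF-1 family, in 3 biological replicates that form 1 group. Every sample came from whole L2 larvae, pooled males and females, of strain OP33 (unc-119(ed3) III; wgIs33), whose integrated transgene adds a C-terminal GFP-FLAG tag to NHR-25. Thus all larvae carried the tagged receptor in 1 transgenic line, all tissues were mixed, and no untagged or untreated group was compared; the shared control library was not analysed here. Replicate 3 differs from replicates 1 and 2 in the labelled source of the worms and in the note on fragmentation. Region lists hold no expression values, so the stage and the tissues could not be checked against marker genes.

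Chromatin modifiers add, remove or bind small groups on histone tails, and remodellers use ATP to move or eject nucleosomes. Methylation of H3K4 and H3K36 marks active genes, whereas methylation of H3K9 and H3K27 marks silenced ones, and deacetylases remove the acetyl groups that accompany transcription. In worm larvae such genes act in many tissues and are known for roles in germline identity, vulval development, the seam cells of the epidermis and lifespan. A bound site near such a gene says where the tagged receptor was recovered and not whether the gene's expression depends on it.

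A gene was counted as bound when a summit lay between 1000 bp upstream of its outermost transcript start and its end. Summits were those of the optimal list, the 4548 regions that passed the authors' reproducibility threshold. Each replicate's own list holds 30000 regions that mix peaks with background. There, a region's rank by signal was used, with rank 1 the strongest, and a site was called found in a replicate when it overlapped one of that replicate's strongest 4548 regions. Depth is unknown because the lists hold no read counts, and the scaling of the signal is not stated in the deposited files.

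Of the 66 genes, 17 were bound (25.8%), where 15.6% of all protein-coding genes were. These 17 genes held 18 sites, since sir-2.2 had 2. A single gene of the 66 thus held at least 2 summits, near the 2.61% of all genes with as many. The strongest 4548 regions of replicates 1, 2 and 3, taken alone, placed summits in 19, 18 and 18 of the 66 windows, or 27.8% ± 0.875 (SD, n = 3), against 15.9% of all genes in each replicate. The windows of the 66 genes were longer than most, with a median of 4910 bp (2009 to 16998), against 3027 bp over all genes. Per 100 kb of window the 66 genes held 4.79 summits, close to the 4.35 of all gene windows joined and the 4.51 of the nuclear genome. The share of bound genes was thus above that of all genes, while the density of summits over the whole windows was near the background.

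The sites of the bound genes lay close to transcript starts. All 17 had every summit in a promoter window, which reached 1000 bp before and 200 bp past a transcript start, whereas 76.6% of all bound genes did. Counted in promoter windows alone, 17 of the 66 genes were bound, against 13.4% of all genes. A site found in all 3 replicates was held by 14 of the 66 (21.2%), against 9.61% of all genes. Because the genes are not replicates of one another and were chosen with earlier results known, these shares are descriptions without a test.

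The sequences under the strongest sites, and under those with repeated or short motifs, are shown first. Each runs over 101 bases centred on the summit, in the direction of the named gene's transcription, from the RefSeq sequence of the ce11 assembly. Capitals mark the motif named in the text after them; the first 3 sequences after that of set-16 hold none of the 6 motifs searched and have no capitals. They lie at chrIII:13643683-13643783, plus strand (set-16), at chrIV:4390626-4390726, plus strand (set-21), at chrIV:16656405-16656505, minus strand (set-26) and at chrII:6331552-6331652, minus strand (set-4).
set-16: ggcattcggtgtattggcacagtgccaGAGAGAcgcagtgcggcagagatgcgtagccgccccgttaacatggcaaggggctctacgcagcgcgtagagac
set-21: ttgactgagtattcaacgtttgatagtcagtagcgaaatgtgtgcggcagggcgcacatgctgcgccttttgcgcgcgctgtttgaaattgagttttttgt
set-26: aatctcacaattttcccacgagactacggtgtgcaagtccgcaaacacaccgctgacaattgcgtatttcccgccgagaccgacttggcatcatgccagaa
set-4: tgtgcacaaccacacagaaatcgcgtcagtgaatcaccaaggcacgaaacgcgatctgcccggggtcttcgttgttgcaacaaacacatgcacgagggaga

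The site of set-16 carried GAGAGA 18 to 23 bases upstream of its summit and had the highest GC content of the 18 sites, 61.4%. Those of set-21, set-26 and set-4 had 47.5, 51.5 and 53.5%. The next sequences were chosen because they hold a motif. That of swsn-3 has the E-box CACGTG 2 times, 1 copy covering the summit, and that of set-2 has TGACCT 2 times, which is AGGTCA on the other strand, the hexamer that nuclear receptors are known to bind. Those of swsn-7 and of the stronger site of sir-2.2 have TCTCTC, which is GAGAGA on the other strand, and that of mes-2 has TTATCA, the reverse complement of the GATA-type word TGATAA. They lie at chrIII:2768785-2768885, minus strand (swsn-3), chrIII:4930400-4930500, minus strand (set-2), chrII:8028485-8028585, minus strand (swsn-7), chrX:13328997-13329097, plus strand (sir-2.2) and chrII:14383806-14383906, plus strand (mes-2).
swsn-3: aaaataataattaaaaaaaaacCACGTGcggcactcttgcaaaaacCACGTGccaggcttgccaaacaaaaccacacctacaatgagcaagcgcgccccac
set-2: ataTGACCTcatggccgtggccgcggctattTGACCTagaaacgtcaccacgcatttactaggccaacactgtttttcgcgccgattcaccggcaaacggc
swsn-7: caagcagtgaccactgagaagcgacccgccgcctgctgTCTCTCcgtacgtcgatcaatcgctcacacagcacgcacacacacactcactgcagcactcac
sir-2.2: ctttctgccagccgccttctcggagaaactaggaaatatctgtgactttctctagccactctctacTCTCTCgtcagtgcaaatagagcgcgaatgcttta
mes-2: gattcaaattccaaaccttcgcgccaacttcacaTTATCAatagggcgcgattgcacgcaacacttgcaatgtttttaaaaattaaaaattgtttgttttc

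Matches to 6 motifs were sought in these windows, reading either strand. They were the receptor hexamer AGGTCA, the longer receptor site CAAGGTC (which can overlap that hexamer), the repeat GAGAGA, the E-box CACGTG, the GATA-type word TGATAA and the Grainyhead-type word AACCGGTT. At least 1 of them was present at 9 of the 18 sites (50%), near the 42.0% of all 4524 nuclear summits. AGGTCA was present at 3 sites (hda-6, set-2 and met-2), or 16.7% against 6.56% of all nuclear summits, and at 1 of the positions 500 bp downstream of the 18 summits. In hda-6 it lay 34 to 39 bases upstream of the summit and in met-2 it lay 24 to 29 bases upstream. The longer CAAGGTC, the form known for the FTZ-F1 family, was at 0 of 18, which allows a share of up to 16.7%, and at 2.06% of all nuclear summits. GAGAGA was at 3 sites (16.7% against 24.6%), CACGTG at 2, swsn-3 and met-1 (11.1% against 5.88%), TGATAA at 1 (5.56% against 9.15%) and AACCGGTT at 0 (against 1.08%). With 18 sites none of these shares can be told from that of all summits, and intervals and limits of this kind cover counting error only.

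Summit windows of the 18 sites were 47.3% ± 9.42 GC (SD over sites, 24.8 to 61.4%), against 42.2% ± 8.76 over all nuclear summits. The lowest value was that of the weaker sir-2.2 site. The regions themselves were narrow, with a median width of 274.5 bp (130 to 390) against 390 bp for all nuclear regions, and signals ran from 122 to 1452 with a median of 351 against 182. Of the 18 sites, 14 (77.8%) stood in the upper 2274 of the optimal list, while 54.2% of the 2351 nuclear summits in promoter windows did. The 4 sites outside the upper 2274 were each 390 bp wide. Widths were not compared among regions of like signal, so narrowness is not shown as a trait apart from signal.

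**Figure D1:**
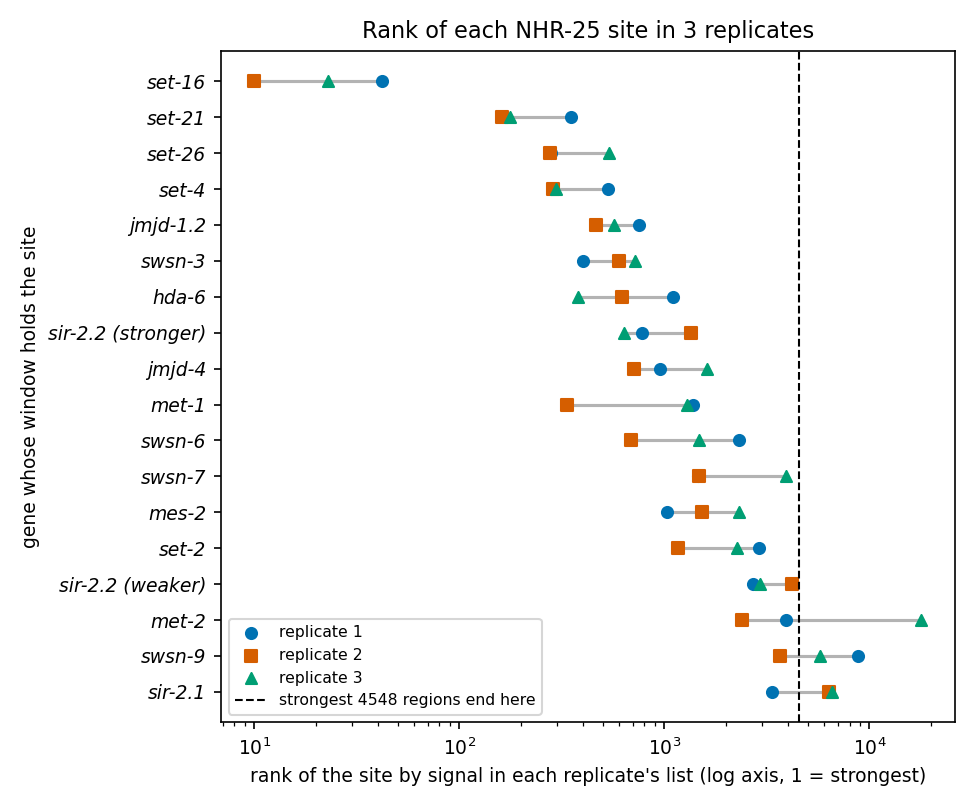
Rank by signal of each of the 18 sites in the lists of replicates 1, 2 and 3 (log axis, 1 is the strongest of 30000), with a line joining the lowest and highest rank and a dashed line at rank 4548. The site of set-16 stands alone at ranks 10 to 42, and the ranges of most neighbouring sites overlap.

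Of the 18 sites, 15 were found in all 3 replicates (83.3%, 95% Wilson interval 60.8 to 94.2%). The same held for 55.3% of all nuclear optimal regions and for 58.4% of those with a summit in a promoter window. The site of met-2 was found in 2 replicates and those of sir-2.1 and swsn-9 in 1 each. The optimal list was thresholded on these same replicates, so recurrence is partly built in. Ranks of the 18 sites varied over the replicates by a median of 2.26-fold between the lowest and the highest, like the 2.29-fold of 4406 nuclear sites ranked in all 3 replicates. Across the 18 sites the Spearman correlation of ranks was 0.835 between replicates 1 and 2, 0.868 between 1 and 3 and 0.907 between 2 and 3. These correlations are across sites that share the libraries, and the sites were thresholded on them. Sorted by median rank, set-16 was the only site whose range did not overlap that of its neighbour; in the other 16 of 17 neighbouring pairs the order lies within the spread between replicates.

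Genes for H3K4 methylation, the mark of active promoters and enhancers, held the strongest site. In set-16, which encodes an MLL3/4-type H3K4 methyltransferase, the site (III, 13643554 to 13643924, between genes) had a signal of 1452. Among nuclear sites of the optimal list it ranked 10. Its ranks in replicates 1, 2 and 3 were 42, 10 and 23. It ranked above every other site of the 66 genes in each replicate. Its summit was 183 bp upstream of the start of set-16 and 163 bp upstream of drr-2, which runs the other way, so the site belongs to either promoter or to both.

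The site of set-2, the gene of the SET1-type catalytic subunit of the COMPASS complex, was weaker. It lay between genes (III, 4930352 to 4930543), 246 bp upstream of a start, with a signal of 233 and ranks of 2901, 1159 and 2266. No other promoter window held it. The third gene of this group, set-17, which encodes an H3K4 methyltransferase acting in the germline, had no optimal summit within 27994 bp of its window. Its best regions ranked 5439, 27544 and 9007.

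The H3K36, H3K27 and H3K9 groups had 1 bound gene each. For H3K36, met-1, a Set2-type methyltransferase gene, was bound and mes-4, which maintains H3K36 methylation in the germline, was not. The met-1 site (I, 4253922 to 4254160) had a signal of 369 and ranks of 1386, 335 and 1287, highest in replicate 2. It lay 137 bp upstream of a start, in an intron of C43E11.12 on the same strand, whose annotated end is 57 bp from met-1.

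For H3K27, the Polycomb-like complex of mes-2, mes-3 and mes-6 had a site only at mes-2, the gene of its E(z)-type catalytic subunit. That site (II, 14383744 to 14383948, between genes, 117 bp upstream) had a signal of 274 and ranks of 1029, 1522 and 2309. No other promoter window held it. In the window of the ESC-type partner gene mes-6 the best regions ranked 4016, 7420 and 3572, inside the strongest 4548 in replicates 1 and 3. Whether these lie at the same position is not shown, and none was in the optimal list. In mes-3, whose product is a worm-specific subunit, the best ranks were 6211, 26077 and 10054.

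Of the 5 genes for H3K9 methylation and HP1 proteins, which bind methylated H3K9, met-2 alone was bound. It encodes a SETDB1-type methyltransferase. Its site (III, 8375304 to 8375693) lay 199 bp downstream of the start in a coding exon, just inside the edge of the promoter window, with a signal of 123 and ranks of 3937, 2384 and 17926. This was the widest spread over replicates of the 18 sites, 7.52-fold, and the site was outside the strongest 4548 regions of replicate 3. The genes set-25, set-32, hpl-1 and hpl-2 were unbound. In set-25, which acts with met-2 in H3K9 methylation, the best ranks were 7036, 5517 and 4746, outside the strongest 4548 regions in each replicate and nearest to them in replicate 3.

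For H4K20, set-4, whose product adds the further methyl groups to H4K20, had 1 of the strongest sites. It lay between genes (II, 6331481 to 6331758), 261 bp upstream of the start, with a signal of 521 and ranks of 533, 286 and 295. No other promoter window held this site. Of the 11 sites that belong to a single promoter it had the highest signal in the optimal list, but its ranks overlapped those of the swsn-3 site, which ranked ahead of it in replicate 1. The gene of the monomethylating enzyme, set-1, was unbound, with a site of signal 174 lying 335 bp beyond its end and found in all 3 replicates.

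The paralogs set-26 and set-9 encode SET-domain proteins that bind methylated H3K4 and are known for effects on lifespan and the germline. Of the pair, set-26 was bound and set-9 was not. The set-26 site (IV, 16656298 to 16656594, between genes) had a signal of 532 and ranks of 280, 276 and 537. Its summit was 572 bp upstream of set-26 but 158 bp upstream of tsr-2, which runs the other way. Near-identical paralogs can share reads, and 29.5% of the 50-base words in the set-26 window and 25.1% in that of set-9 occur elsewhere in the genome. None of the 248 words in the set-26 region itself does.

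The remaining 22 set- genes have less defined roles in the worm, and 1 of them was bound, set-21 (4.55%), below the 15.6% of all genes. The set-21 site (IV, 4390508 to 4390840, between genes) ranked second among the 18, with a signal of 653 and ranks of 349, 162 and 176. Its summit was 168 bp upstream of set-21 and 86 bp upstream of rpl-7A, a gene of the large ribosomal subunit that runs the other way. Without this group of 22, 16 of 44 genes were bound (36.4%). Leaving out the role group with the lowest share raises that of the rest, so this value is a description only.

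Of the remodelling genes, the swsn- subunits, 4 of 7 were bound (57.1%), against 15.6% of all genes. The SWI/SNF complex is built around the ATPase encoded by swsn-4 and the core subunit encoded by swsn-1, and neither gene was bound, nor was swsn-2.2. Bound were swsn-3 (SMARCE1-type), swsn-6 (an actin-related protein), swsn-7 (ARID2-type, of the PBAF form) and swsn-9 (a bromodomain subunit of the BRD7/BRD9 type).

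The swsn-3 site (III, 2768695 to 2768965) had a signal of 442 and ranks of 403, 598 and 722. It lay 156 bp upstream of the start, inside an intron of cox-6B, whose annotated model spans swsn-3 on the opposite strand. The swsn-6 site (IV, 5394802 to 5395004, between genes) had a signal of 282 and ranks of 2317, 689 and 1475. It was 116 bp upstream of swsn-6 and 113 bp upstream of perm-3, so the summit stood about midway between the starts of these divergent genes.

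In swsn-7 (II, 8028471 to 8028600) the summit was the farthest upstream of the 18, at 772 bp, with a signal of 184 and ranks of 1455, 1477 and 3941. The swsn-9 site (I, 7224617 to 7225006) had the lowest signal of the 18, 122, and ranks of 8808, 3679 and 5715. Its summit was 4 bp past a start, in an untranslated exon, and it was found in replicate 2 alone. In the unbound swsn-1 the best ranks were 4527, 17967 and 10773, and the nearest optimal summit was 89936 bp from its window.

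**Figure D2:**
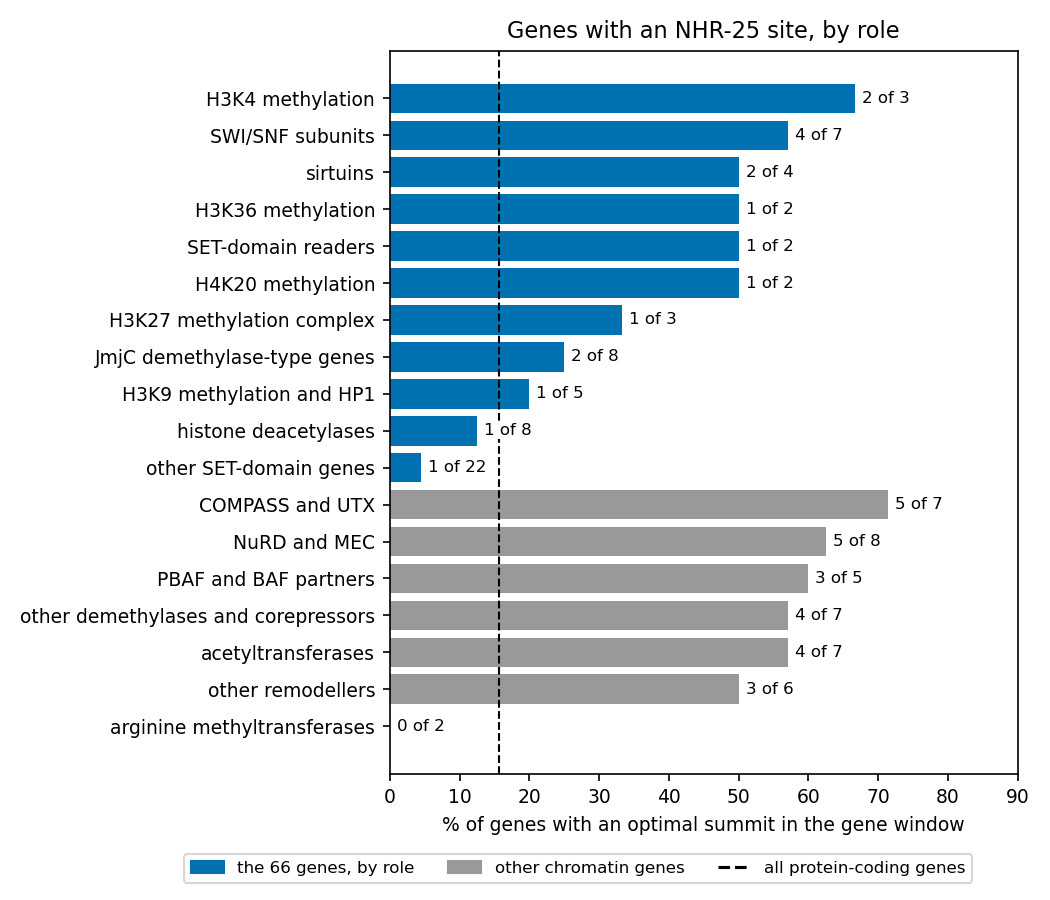
Share of genes (%) with an optimal summit in the gene window, for the 11 role groups of the 66 genes (blue) and for 7 lists of other chromatin genes (grey), with the number bound of the number in each group beside the bar. The dashed line is the 15.6% of all protein-coding genes, and the largest group, the other SET-domain genes, has 1 of 22 bound.

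Of the enzymes that remove acetyl groups, histone deacetylases had 1 of 8 genes bound (12.5%), near the 15.6% of all genes, and sirtuins had 2 of 4. The bound deacetylase gene was hda-6, a class II gene of the HDAC6 type. Its site (IV, 5364202 to 5364428, between genes) had a signal of 425 and ranks of 1097, 619 and 380. Its summit was 27 bp upstream of hda-6 and 226 bp upstream of the divergent F41H10.4, the only shared site of the 7 at which the described gene had the nearer start.

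The class I genes hda-1, hda-2 and hda-3, which encode the deacetylases of NuRD- and SIN3-type complexes, were unbound by the rule, hda-1 by the smallest margin of all. A site of signal 201 (V, summit at 14524383) lay 1006 bp upstream of hda-1, 6 bp outside its window, with ranks of 2014, 5307 and 2533. It was in the promoter window of ril-1, the divergent neighbour. The gene hda-2 starts 70 bp past the end of swsn-7 on the same strand, and a site of signal 155 lay 197 bp beyond its own end. For hda-4, a class II gene, a stronger site of signal 504 (ranks 289, 769 and 374) lay 2544 bp upstream of the start and in no promoter window.

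The stronger site of sir-2.2 (X, 13328923 to 13329128) was in the gene's own intron, 980 bp past its outermost start and 209 bp upstream of an internal one. Its signal was 366 and its ranks were 775, 1347 and 635. The weaker site (X, 13327861 to 13328250), 11 bp upstream of the outermost start, had a signal of 160.0 and ranks of 2705, 4205 and 2915. The ranges did not overlap, so the internal site was the stronger in each replicate. The neighbour sir-2.3 starts 422 bp past the end of sir-2.2, and its nearest optimal summit was that same internal site, 1639 bp outside its window.

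The gene sir-2.1, the worm ortholog of SIRT1, had a weak site 51 bp upstream of a start (IV, 10366085 to 10366474), with a signal of 143 and ranks of 3332, 6331 and 6592. It was found in replicate 1 alone. The fourth gene, sir-2.4, is of the SIRT6/SIRT7 type. It was unbound, and its best rank of 3397 in replicate 1 was the only 1 inside the strongest 4548.

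Of 8 genes of the JmjC type, the class that holds histone demethylases, 2 were bound (25%, against 15.6% of all genes). The gene jmjd-1.2 encodes a PHF8-type demethylase known in the mitochondrial stress response. Its site (IV, 4660358 to 4660655, between genes) had a signal of 429 and ranks of 755, 462 and 567, among the tightest of the 18. It was 496 bp upstream of jmjd-1.2 and 294 bp upstream of the divergent F29B9.11, and the promoter window of mrps-21 held it too.

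The second, jmjd-4, is named for a family whose human member JMJD4 modifies a translation termination factor and is not a histone demethylase. Its site (III, 10334035 to 10334248, between genes) had a signal of 336 and ranks of 950, 712 and 1621. It was 139 bp upstream of jmjd-4 and 120 bp upstream of mev-1, the gene of a succinate dehydrogenase subunit. The H3K9 and H3K36 demethylase gene jmjd-2 and the H3K27 demethylase genes jmjd-3.1, jmjd-3.2 and jmjd-3.3 were unbound, and a site of signal 128 lay 55 bp outside the window of jmjd-2.

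**Figure D3:**
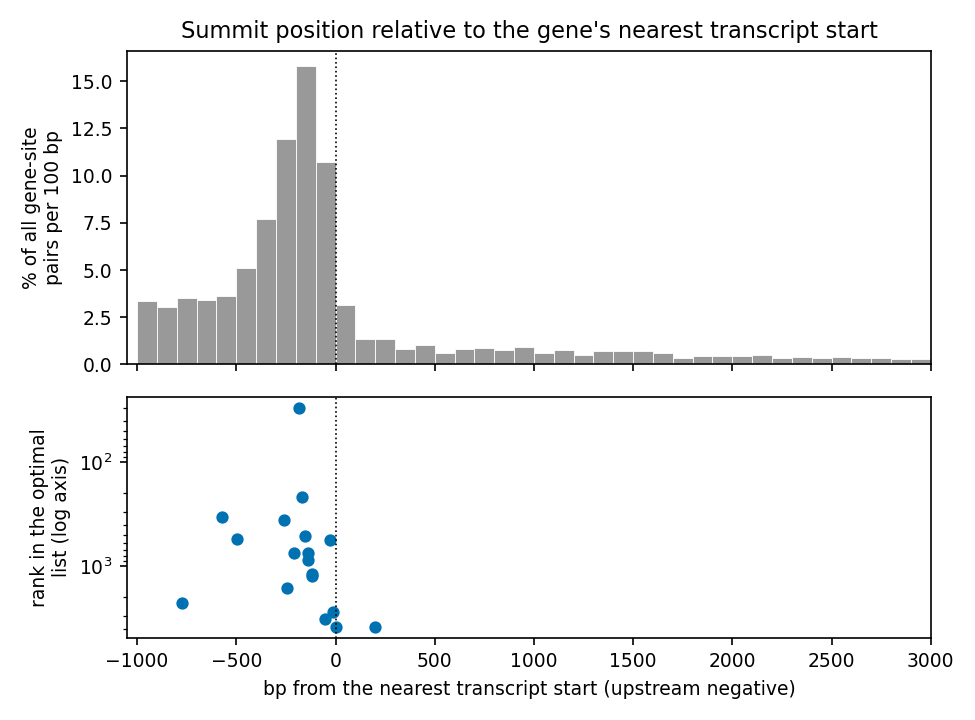
Distance in bp from each summit to the nearest start of its gene (upstream negative). The upper panel gives the percentage of all 4012 gene-site pairs per 100 bp and the lower panel the 18 sites by rank in the optimal list (log axis); 13 of the 18 fall in the 300 bp before the start, where the peak of all pairs also stands.

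Taken by position, 16 of the 18 summits were upstream of the nearest start of their gene and 2, those of met-2 and swsn-9, were past it. The distance had a median size of 162 bp, against 364 bp over all 4012 pairs of a gene and a site in its window. Within 300 bp upstream lay 13 sites (72.2%), against 38.5% of all pairs. All 18 were in promoter windows, against 73.5% of all pairs. Annotated starts of worm genes are often sites of trans-splicing, so the distance need not be that to the true start of transcription.

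At 7 of the 18 sites the promoter window of another gene also held the summit, and in each case the nearest other gene ran in the opposite direction. These were the sites of set-16, set-21, set-26, jmjd-1.2, hda-6, jmjd-4 and swsn-6. The other gene had the nearer start in 6 of them. Among all nuclear summits in promoter windows, 23.7% were shared by at least 2 genes. When each summit was given to its nearest start alone, 15 of the 66 genes were bound, against 15.7% of all genes by this rule. Only 11 of these were genes that kept a site, and 4 (hda-2, hda-4, jmjd-2 and jmjd-3.1) gained one outside their window. The optimal summit nearest to the window of jmjd-3.1 was 5446 bp from it. Lost by this rule were the sites of 6 genes, set-16, set-21, set-26, jmjd-1.2, jmjd-4 and swsn-6.

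Gene layout around bound and unbound members was compared as a description, without the same counts over all protein-coding genes. An upstream neighbour within 500 bp was present at 12 of the 17 bound genes, in 7 cases on the same strand and in 5 running the other way. It was present at 16 of the 49 unbound genes, in 13 cases on the same strand and in 3 running the other way. Gene length had a median of 4482 bp in bound genes and 3547 bp in unbound ones, and the ranges, 1493 to 12722 and 1009 to 15998 bp, overlapped. At least 2 annotated starts were present in 7 of 17 bound and in 17 of 49 unbound genes.

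The bound genes were on 5 of the 6 chromosomes. Chromosome IV had 6 of 11 genes bound, III had 5 of 10, II had 3 of 13, I had 2 of 10, X had 1 of 14 and V had 0 of 8. On the X chromosome this was 7.14%, against 16.7% of all X-linked genes, and on autosomes 16 of 52 (30.8%), against 15.5%. The share of all genes was not computed for each autosome, so the counts of single autosomes stand without a background.

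**Figure D4:**
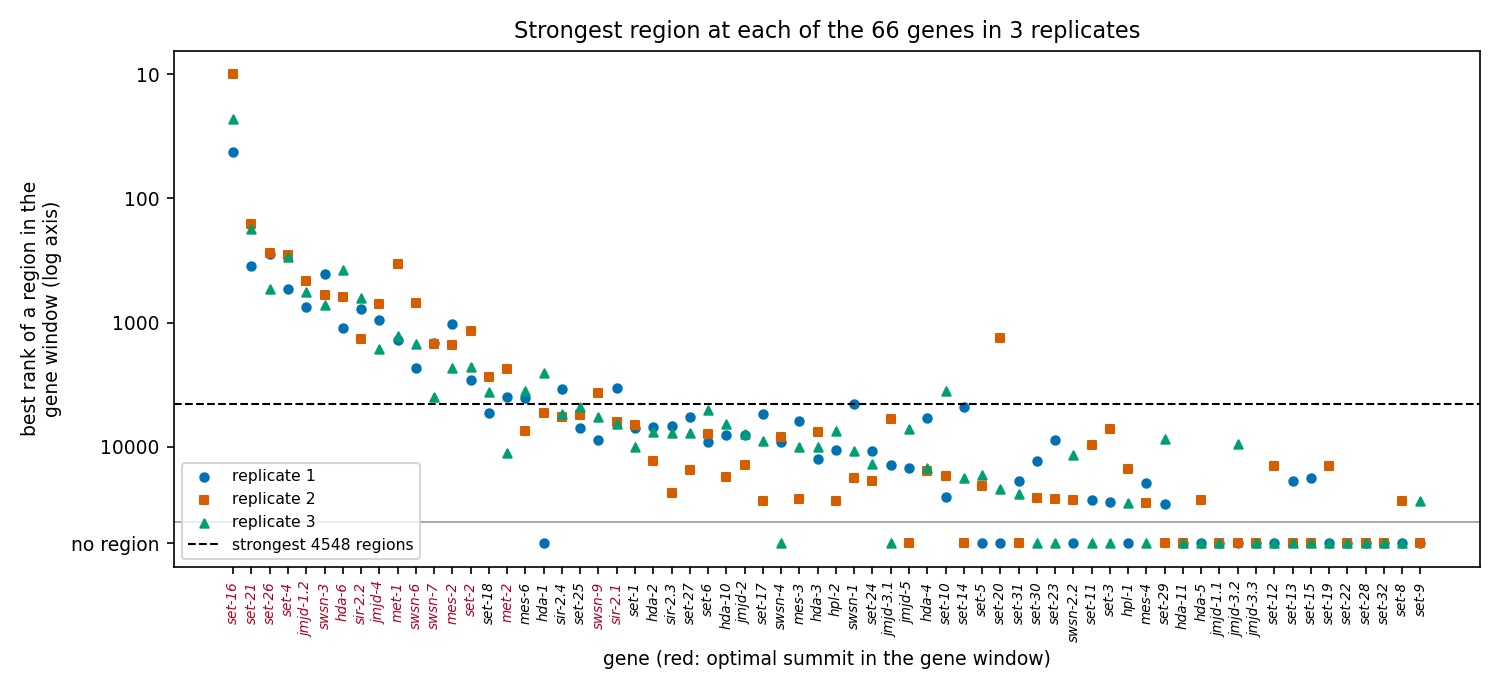
Best rank by signal of any region with its summit in the window of each of the 66 genes, in replicates 1, 2 and 3 (log axis, strongest at the top; points below the grey line had no region in that replicate's list). The dashed line marks rank 4548. Most bound genes (red names) fill the left end, while met-2, swsn-9 and sir-2.1 stand among unbound genes. Of the 49 unbound genes, 42 have no point above the line, a count given without the same count over all protein-coding genes.

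Of the 49 unbound genes, 42 had no summit among the strongest 4548 regions of any replicate, 5 had one in 1 replicate, 2 in 2 replicates and 0 in all 3. The 2 were mes-6 and set-18, the latter with ranks of 5337, 2725 and 3630. The 5 were hda-1, set-10, set-20, sir-2.4 and swsn-1. The same counts over all unbound protein-coding genes are not given, so whether these are usual is not known. In set-20 the replicates differed most: its best rank was 1339 in replicate 2 and 21909 in replicate 3, and replicate 1 had no region in its window. No region of any replicate lay in the windows of hda-11, jmjd-1.1, jmjd-3.3, set-22, set-28 and set-32, background regions included.

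Over unbound genes with a region, the median best rank was 8944 in replicate 1 (32 genes), 14963 in replicate 2 (35 genes) and 8850.5 in replicate 3 (30 genes). The bound genes had medians of 1029, 689 and 1287. Bound genes were defined by the optimal list, which was thresholded on these same replicates, so this difference is built in. In the list called on the pooled replicates, the unbound genes with the strongest regions were hda-1 (rank 2072), set-25 (4729), hda-2 (5007), mes-6 (5134) and set-18 (5658).

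The nearest optimal summit was at a median of 5446 bp from the window of an unbound gene, and at 109218 bp for set-28. The strongest of these nearest summits lay 2723 bp outside the window of the HP1 gene hpl-2. It had a signal of 2194 and ranks of 23, 3 and 21. The promoter windows of tasp-1 and K01G5.10 held it, and that of rnf-113, the upstream neighbour of hpl-2, did not. A link of this site to hpl-2 was not tested. The gene hpl-2 starts 93 bp past the end of rnf-113 on the same strand. Worm genes so closely spaced are often transcribed together as an operon, but no transcript data were in the files and the windows were not extended for it.

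Other chromatin genes, named outside the rule, were bound in 24 of 42 cases (57.1%), against 15.6% of all genes, with 41 summits of which 31 lay in promoter windows. These lists were chosen with earlier results of these data known. Window lengths and summits per 100 kb are not given for these 42 genes, so their share is not set against gene length. Of the COMPASS and UTX genes, which work with set-2 and set-16, 5 of 7 were bound: ash-2 (signal 511), dpy-30 (160), utx-1 (154), wdr-5.1 (136) and cfp-1 (119). The site of ash-2 lay 120 bp upstream and was found in all 3 replicates, and rbbp-5 and pis-1 were unbound.

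Of the NuRD and MEC genes, the partners of the class I deacetylases, 5 of 8 were bound. The histone-binding gene lin-53 had a site of signal 1048 at 236 bp upstream, and egl-27, an MTA-type gene, had 10 summits. The remodelling ATPase genes let-418 and chd-3 were unbound. Of the PBAF and BAF partners of the swsn- genes, let-526 (ARID1-type, 5 summits, best signal 665), pbrm-1 (541) and snfc-5 (121) were bound and phf-10 and dpff-1 were not.

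Acetyltransferase genes were bound in 4 of 7 cases, among them cbp-1, the CBP/p300 gene, with a signal of 1074 at 881 bp upstream, and hat-1, with 792. The other remodellers had 3 of 6, with nurf-1 at 581, chd-7 at 478 and btf-1 at 300, and isw-1, chd-1 and ssl-1 were unbound. Other demethylase and corepressor genes had 4 of 7, led by the H3K4 demethylase gene rbr-2 at 208, and the arginine methyltransferase genes prmt-1 and prmt-5 were both unbound.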

How the data were processed

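Regions from ChIP-seq of tagged NHR-25 in 3 biological replicates (1 group) were deposited by the authors as peak lists. The labels name ce11 and ce10; ce11 was used. Which aligner and peak caller made them is not given in the sources used here. Per the deposited notes, 30000 regions were listed for each replicate and for the pooled replicates, and the optimal list holds those passing a reproducibility threshold (irreproducible discovery rate). The signal of each region, deposited by the authors, was used within a list alone, and replicates were compared by rank. The summit offset is also the authors' value.

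Windows came from Ensembl release 115 and sequence from RefSeq, with Python 3.11.15, pandas 2.3.3, numpy 2.4.6, scipy 1.17.1 and matplotlib 3.10.9. Coordinates are 1-based. A summit counted for every gene window holding it. Repeats are 50-base words that recur in the genome. Programs were tested on simulated data.

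Every bound gene was named, with replicate ranks; of unbound genes, the 5 ranked highest in the pooled list and others for distance or role, chosen after their values were seen. The genes and lists were chosen with earlier results of these data known. The name mys-3 was not matched. With 1 group, no comparison between conditions and no test was made. Replicates are biological per the labels. Alternatives were other windows, nearest starts, merged regions, other overlaps and numbers of regions, other motif windows and leaving out each replicate.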

Additional observations from a re-analysis of the deposited data

How the results depend on the processing

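With each replicate left out in turn, keeping optimal regions found in both others, 14 to 15 of the 66 genes were bound (10.6 to 11.0% of all genes), with 15 to 16 summits. In promoter windows 14 to 15 were bound (9.01 to 9.44% of all genes), and 83.3 to 88.9% of sites were found in both others (62.6 to 65.0% of all nuclear sites). Of 44 results recomputed under alternatives, 37 stayed within 1.5 times the count or within the spread used for shares and 7 moved. Counting only summits between the start and the end of a gene left 3 genes and 3 summits (5.28% of all genes), since most sites were upstream. Within the upper 2274 optimal regions by signal, 100% of sites were found in all 3 replicates (91.6% over all nuclear regions). Requiring an overlap of 50% of both regions gave 55.6% (33.1%). The share was 55.6% (31.7%) with 0.5 times and 94.4% (82.9%) with 2 times as many regions per replicate. AGGTCA within 25 bp of the summit was at 5.56% of sites, against 3.58%. Reach upstream changed the members: with 500 bp, 15 genes were bound (13.5% of all genes; set-26 and swsn-7 dropped out), and with 2000 bp, 22 (19.0%), hda-1, jmjd-2, set-1, set-30 and set-5 added. No paired analysis was possible because the samples form 1 group. With 18 sites, 1 site is 5.56%, and without read counts no limit from depth can be given.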

Other observations

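Of the 4548 optimal regions, 24 were mitochondrial and were left out of every count given for nuclear sites. The coordinates of 1802 optimal regions are those of a region in the pooled list, and there the optimal signal was a median of 2.04 times the pooled one. Signals of these lists were therefore never set side by side.

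The only member whose window held more than 1 optimal summit was sir-2.2. Of the 42 other chromatin genes examined, 5 did so, where 2.61% of all genes did. They were egl-27 with 10, let-526 with 5, nurf-1 with 3, and dcp-66 and cbp-1 with 2 each. In promoter windows lay 5 of the 10 summits of egl-27 and 1 of the 5 of let-526. These lists were drawn up with earlier results known, and window lengths of their genes are not given.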
